A study of Mus musculus with 14 samples.

Results

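Respiratory complex I is built from many small nuclear-encoded subunits, and their transcripts were followed here in mouse triceps muscle. The members were all genes in the deposited table whose symbol began with Ndufa, Ndufb, Ndufc, Ndufs, Ndufv or Ndufaf, without symbols that contain -ps, which gave 46 of 52550 genes. The samples were triceps from 14 male mice profiled by 3′ mRNA sequencing, which reads the 3′ end of each transcript. FLExDUX4 mice, which carry a transgene for human DUX4 and model facioscapulohumeral muscular dystrophy, were compared with WT littermates, and mice of each genotype either had voluntary wheel running for 6 weeks or no running. The groups were 3 WT controls, 4 WT runners, 3 FLExDUX4 controls and 4 FLExDUX4 runners. The labels name no age, Cre allele or distance run. Mice are numbered 1 to 4 within a group in the order of their records, which pairs nothing across groups.

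Complex I takes electrons from NADH in the mitochondrial matrix, passes them along a chain of iron-sulphur clusters to ubiquinone, and pumps protons across the inner membrane. The electron path runs through the core subunits of the matrix arm, while the proton-pumping core subunits of the membrane arm are encoded by the mitochondrial genome. Around the core sit accessory subunits, and assembly factors help to build the enzyme without staying in it. Endurance training is known to raise mitochondrial content in skeletal muscle, and oxidative fibres hold more of the complex than glycolytic ones.

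Gene counts per library ran from 3269357 to 6995811, and each member had between 4 and 5040 counts per library, with 37 of 46 members above 200 counts in every library. All 46 members were tested, none was at 0 in any library, and levels are given as CPM, read counts scaled to a common library size with TMM factors for composition. The tissue label was checked against 7 fast muscle markers, whose summed CPM were 133404 to 137896 in WT controls, 82269.8 to 120885 in WT runners, 118209 to 129513 in FLExDUX4 controls and 88506 to 122342 in FLExDUX4 runners. The members lie on 17 chromosomes, with Ndufa1 and Ndufb11 on the X. Exons of 17 members overlap an exon of a gene on the other strand (among the genes described here in each mouse, Ndufa3 with Tfpt, Ndufa4l2 with Shmt2, Ndufaf3 with Impdh2, Ndufb6 with Smim27, Ndufs1 with Eef1b2, Ndufs3 with Kbtbd4 and Ndufs6 with Mrpl36), and exons of 3 (Ndufb2, Ndufb8 and Ndufb9) overlap a gene on the same strand. The strand setting of the read counting was not given, so reads of such overlapping genes cannot be told apart. In bulk muscle, a change in the number of fibres of a type and a change in the RNA per fibre cannot be told apart.

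Running was first compared with no running averaged over both genotypes. Ndufb10 and Ndufa3 rose, none of the 46 fell, and the other members were mostly above 0 without passing the test. The median log2 change over the members was 0.28, with 43 of 46 above 0, against a median of 0.01 and 51.5% above 0 over all 11088 tested genes. The quasi-likelihood test of edgeR, adjusted by Benjamini-Hochberg over all tested genes with a threshold of 0.05, called 2 of 46 members higher (4.35%) and 0 lower, where it called 0.55% of all genes higher and 0.307% lower (0.857% in both directions). At an unadjusted p under 0.05 stood 29 of 46 members, against 12% of all genes. The difference did not pass the adjusted threshold in 44 of 46 members.

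**Figure D1:**
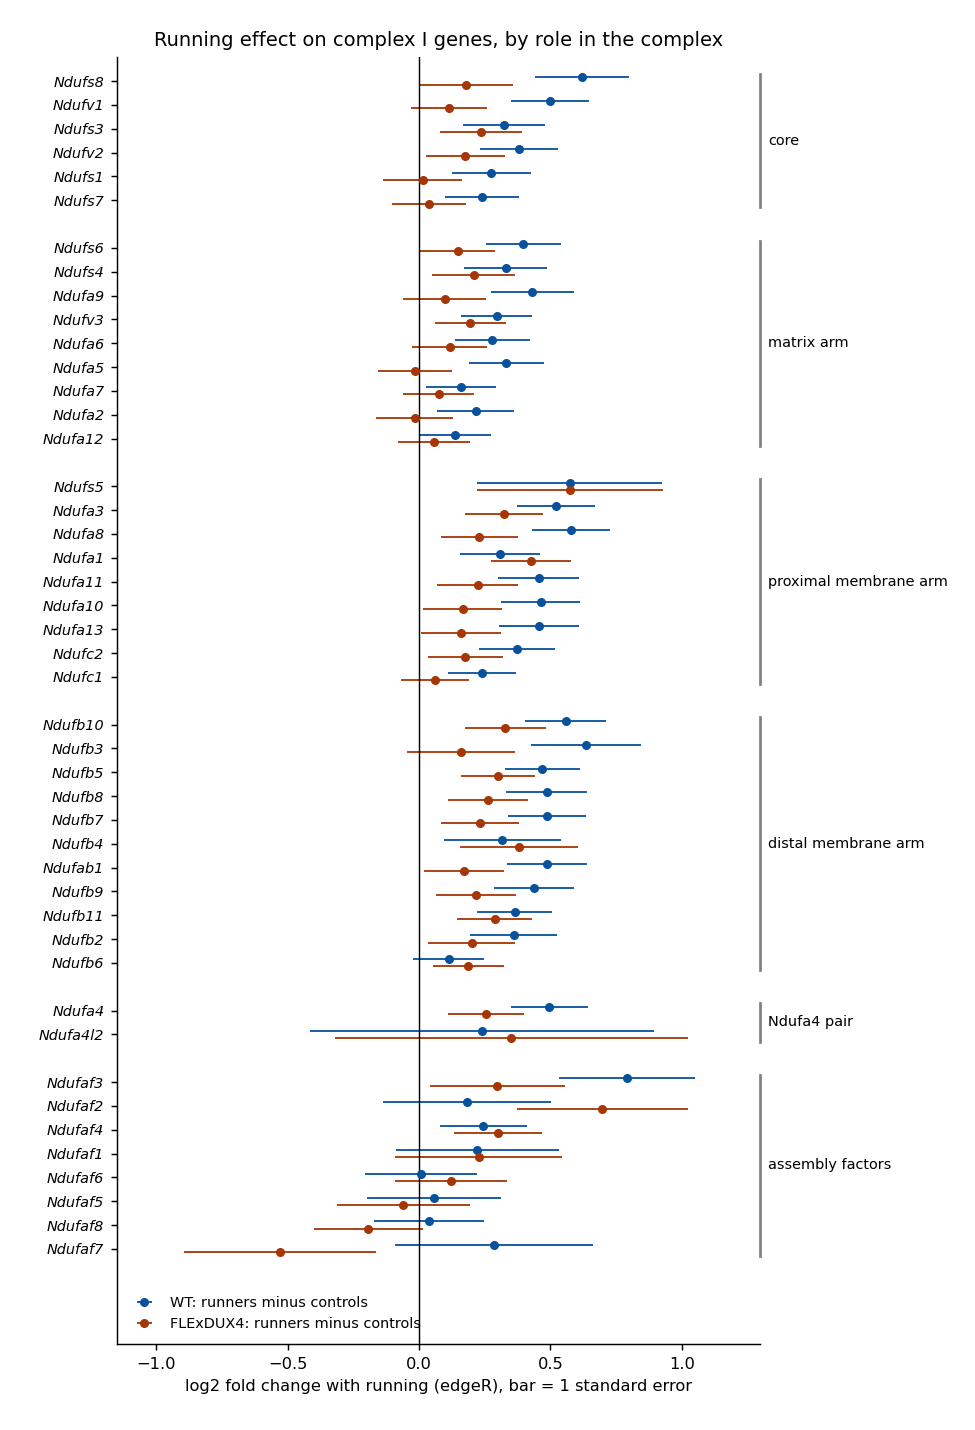
Log2 fold change with running (x axis, edgeR) for 45 of the 46 genes (y axis), grouped by role, in WT (blue) and FLExDUX4 (brown), with bars of 1 standard error. All 45 blue points lie above 0, with a median of 0.36, and 40 of 45 brown points do, with a median of 0.19.

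Ndufb10, a subunit of the distal membrane arm whose cysteine pairs are oxidised in the intermembrane space, stood at 163, 172 and 186 CPM in the WT controls, 258, 216, 248 and 299 in the WT runners, 157, 189.5 and 173 in the FLExDUX4 controls and 234, 273, 197 and 166 in the FLExDUX4 runners. All 4 WT runners lay above all 3 WT controls, whereas FLExDUX4 running 4 lay inside the range of the FLExDUX4 controls. Averaged over genotype, Ndufb10 (ENSMUSG00000040048, chr17:24722060-24724478, minus strand, GRCm38) rose by 0.44 ± 0.11 on the log2 scale, 1.36-fold (edgeR adjusted p = 0.0375). Ndufa3, a small membrane subunit of the proximal arm, stood at 227, 296 and 319 CPM in the WT controls, 391, 343, 407 and 469.8 in the WT runners, 289.7, 345 and 280.3 in the FLExDUX4 controls and 373, 448, 369 and 336 in the FLExDUX4 runners. Its WT groups did not overlap either, while FLExDUX4 running 4 lay below FLExDUX4 control 2. Ndufa3 (ENSMUSG00000035674, chr7:3617373-3620327, plus strand) rose by 0.42 ± 0.10, 1.34-fold (edgeR adjusted p = 0.0385).

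Both calls lie close to the threshold. edgeR called neither gene without any 1 of 9 mice (WT control 1, 2 or 3, WT running 4, FLExDUX4 control 1 or 3, FLExDUX4 running 1, 2 or 3; background 0.153% to 0.496% of all genes), nor without robust estimation (background 1.08%) or without FLExDUX4 control 1 and WT running 2 together (0.207%). Without WT running 1 it called 1 member (Ndufa3; background 0.505%), without FLExDUX4 control 2 it called 4 (0.938%), without WT running 2 or WT running 3 it called 6 (1.12% and 2.16%), and without FLExDUX4 running 4 it called 15 (2.61%). DESeq2 called 9 members (background 3.9%) and limma-voom 1 (0.631%). edgeR called 10 without a low-count filter (1.39%) and 4 with a filter of 1 CPM in 3 libraries (0.771%). With library sizes from spike-ins it called 27 (3.88%), and the median of all genes moved to 0.21. The next members in order of p were Ndufa8 (log2 change 0.40, edgeR adjusted p = 0.0506) and Ndufb5 (0.39, edgeR adjusted p = 0.0522), named after their values were seen.

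**Figure D2:**
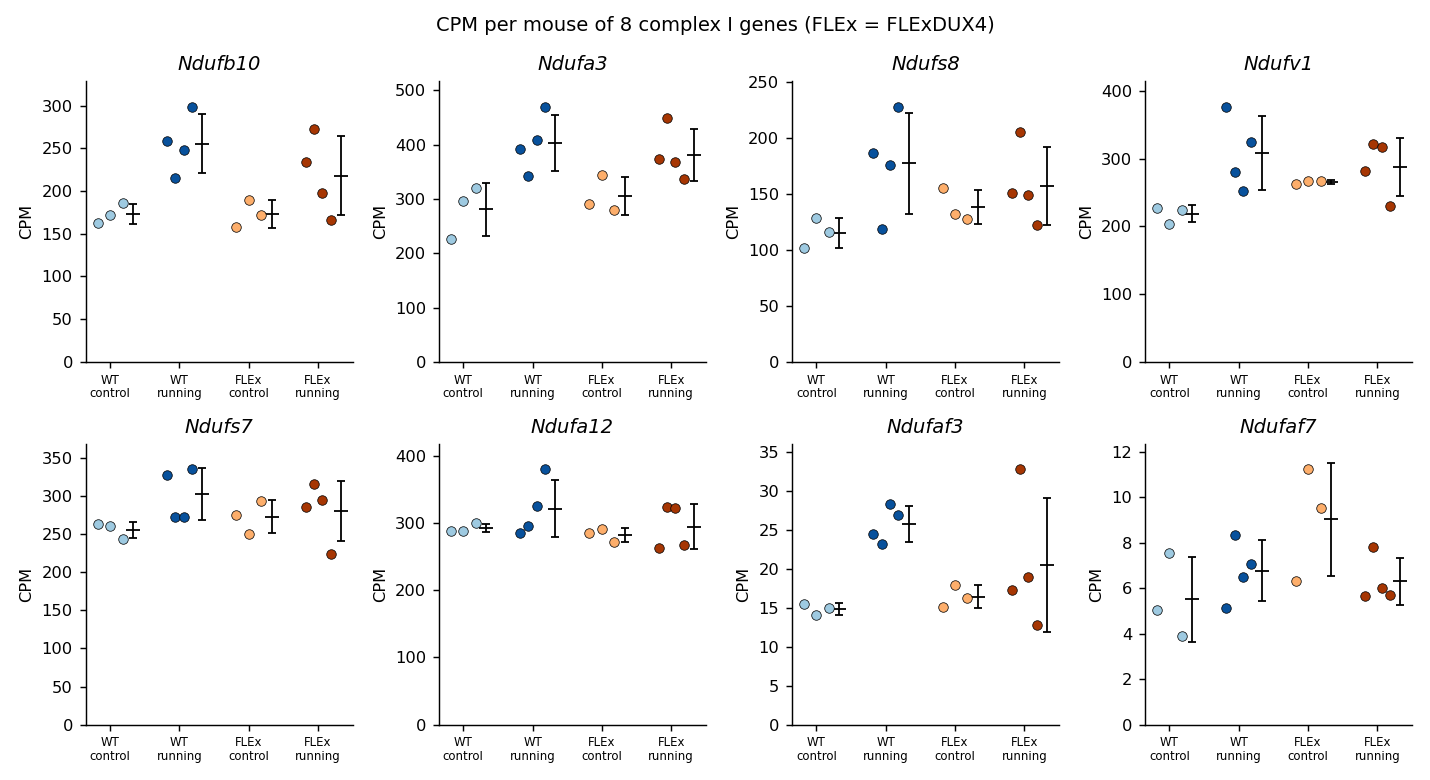
CPM in every mouse (points) of 8 genes, with the mean and 1 SD of each group beside them. In Ndufb10, Ndufa3, Ndufv1, Ndufs7 and Ndufaf3 the WT runners lie above all WT controls, while the groups of Ndufa12 overlap in both genotypes.

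The nearest stretch without annotated exon upstream of the RefSeq start of both called genes is shown next, because transcription of these genes begins near it. Beside them stand those of Ndufs5, whose log2 change was the highest of the 46, and of Ndufa11, chosen after its values were seen, which both hold a match to the motif of NRF1. NRF1 is a transcription factor that binds many promoters of nuclear respiratory genes. The sequences are from RefSeq on GRCm38.p6, 5′ to 3′ on the strand of the gene (minus for Ndufb10 and Ndufs5, plus for Ndufa3 and Ndufa11), and capitals mark the NRF1 match. They end at the RefSeq start in Ndufa3 and Ndufa11, 16 bases before it in Ndufs5 and 55 bases before it in Ndufb10.
Ndufb10 chr17:24724479-24724578: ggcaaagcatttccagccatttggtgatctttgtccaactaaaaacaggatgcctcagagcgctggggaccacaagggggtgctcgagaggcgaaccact
Ndufa3 chr7:3617273-3617372: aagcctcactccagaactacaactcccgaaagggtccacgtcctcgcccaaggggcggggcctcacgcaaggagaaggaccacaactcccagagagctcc
Ndufs5 chr4:123718203-123718302: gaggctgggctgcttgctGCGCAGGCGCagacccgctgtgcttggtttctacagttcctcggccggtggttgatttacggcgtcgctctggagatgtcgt
Ndufa11 chr17:56717686-56717761: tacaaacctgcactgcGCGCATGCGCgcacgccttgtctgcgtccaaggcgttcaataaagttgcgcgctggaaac
The stretches of Ndufb10 and Ndufa3 hold no match to any of the 4 motifs searched.

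Promoters from 250 bases before to 50 after the start were found for 40 of 46 members in the RefSeq table and searched on both strands. The NRF1 motif (GCGC, any base, then TGCGC) was in 9 of 40 (22.5%), against 5.19% of the 27025 symbols in the table. The 9 were Ndufa5, Ndufa6, Ndufa8, Ndufa11, Ndufaf4, Ndufaf5, Ndufb4, Ndufs5 and Ndufs6, and their log2 changes with running had a median of 0.27, against 0.31 in the 31 without it. AAGATGGCG, bound by YY1, was in 6 of 40 (15%), against 1.64% of all. CCGGAAG, bound by GABP and other ETS factors, was in 6 (15%, against 9.93%), and AAGGTCA, bound by oestrogen-related receptors, in 3 (7.5%, against 5.38%). No motif contains another, and a match is a description of these letters only.

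Among the 7 core subunits, none was called, and the median log2 change averaged over genotype was 0.28, with the highest, 0.40, in Ndufs8. Ndufs8, which carries iron-sulphur clusters near the quinone end of the chain, stood at 101, 129 and 116 CPM in the WT controls, 186, 119, 176 and 228 in the WT runners, 155, 133 and 127 in the FLExDUX4 controls and 151, 205, 149 and 122 in the FLExDUX4 runners. WT running 2 lay inside the range of the WT controls, and the other 3 WT runners above it (averaged change 0.40 ± 0.13, edgeR adjusted p = 0.12). Ndufv1, which binds NADH and the flavin that takes up its electrons, stood at 227, 204 and 224 CPM in the WT controls, 377, 281, 253 and 325 in the WT runners, 262, 268 and 267 in the FLExDUX4 controls and 282, 322, 317 and 229 in the FLExDUX4 runners. The WT groups did not overlap, and FLExDUX4 running 4 was below all FLExDUX4 controls (0.31 ± 0.10, edgeR adjusted p = 0.149).

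Ndufv2, the iron-sulphur partner of Ndufv1, stood at 279, 360.1 and 355 CPM in the WT controls, 404, 424, 372 and 527 in the WT runners, 359, 408 and 309 in the FLExDUX4 controls and 383, 461, 437 and 341 in the FLExDUX4 runners. Its WT groups were apart by a narrow margin, between WT control 2 and WT running 3 (0.28 ± 0.11, edgeR adjusted p = 0.221). Ndufs3, a structural core subunit without a cofactor, stood at 75.1, 76.05 and 65.9 CPM in the WT controls, 81.7, 81.9, 89.5 and 109 in the WT runners, 65.02, 66.6 and 77.6 in the FLExDUX4 controls and 81.1, 93.1, 84.9 and 70.7 in the FLExDUX4 runners. The WT groups did not overlap, and FLExDUX4 running 4 lay among the FLExDUX4 controls (0.28 ± 0.11, edgeR adjusted p = 0.247).

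Ndufs1, the large subunit that carries several iron-sulphur clusters, stood at 207, 197 and 197 CPM in the WT controls, 296, 202, 214 and 257 in the WT runners, 191, 187 and 238 in the FLExDUX4 controls and 222, 236, 205 and 167 in the FLExDUX4 runners, with overlap in both genotypes (0.14 ± 0.11, edgeR adjusted p = 0.651). Ndufs7, which holds the last cluster before ubiquinone, stood at 264, 261 and 244 CPM in the WT controls, 328, 273, 273 and 336 in the WT runners, 275, 250.4 and 293 in the FLExDUX4 controls and 285, 316, 296 and 224 in the FLExDUX4 runners. Its WT groups did not overlap, and its FLExDUX4 groups did (0.14 ± 0.10, edgeR adjusted p = 0.644).

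Among the 9 accessory subunits of the matrix arm, none was called, and the median change was 0.20. It ran from 0.10 in Ndufa12 to 0.27 in Ndufs6, and 4 of 9 stood at an unadjusted p under 0.05. Ndufs6, a zinc-binding subunit added late in assembly, stood at 242, 274 and 239.8 CPM in the WT controls, 348, 284, 290.1 and 406 in the WT runners, 253, 267 and 273 in the FLExDUX4 controls and 300.1, 335, 284 and 251 in the FLExDUX4 runners. The WT groups did not overlap, with WT running 2 only just above WT control 2 (0.27 ± 0.10, edgeR adjusted p = 0.209). Ndufa12, whose place is held by its paralogue Ndufaf2 during assembly, stood at 288, 288 and 299 CPM in the WT controls, 285, 296, 325 and 379.8 in the WT runners, 285, 291 and 271 in the FLExDUX4 controls and 263, 323, 323 and 268 in the FLExDUX4 runners. Both genotypes overlapped (0.10 ± 0.10, 95% interval -0.10 to 0.29; edgeR adjusted p = 0.767). The other 7 (Ndufa2, Ndufa5, Ndufa6, Ndufa7, Ndufa9, Ndufs4 and Ndufv3) lay between 0.10 and 0.27.

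Among the 9 accessory subunits of the proximal membrane arm, 1 was called (Ndufa3), 8 stood at an unadjusted p under 0.05, and the median change was 0.34. Ndufs5, an intermembrane space subunit, had few counts, 19 to 74 per library, and stood at 6.52, 5.401 and 7.52 CPM in the WT controls, 14.6, 7.28, 7.71 and 8.85 in the WT runners, 5.21, 6.48 and 6.56 in the FLExDUX4 controls and 7.58, 11.3, 10.5 and 7.41 in the FLExDUX4 runners. All FLExDUX4 runners lay above all FLExDUX4 controls, and WT running 2 lay inside the range of the WT controls. A processed pseudogene, BC002163 (chr16:42955631-42955949; Ndufs5-ps in RefSeq), is identical to a Ndufs5 transcript at 317 of 319 bases and had 1 to 16 counts per library. How reads that align to both were counted was not stated, so the level and change of Ndufs5 are uncertain. Its change was the highest of all members and also among the least precise, 0.57 ± 0.25 (edgeR adjusted p = 0.319). Ndufc1, a small membrane subunit, had the lowest change of the arm, 0.15 ± 0.09 (edgeR adjusted p = 0.552), and stood at 397, 346 and 387 CPM in the WT controls, 426, 424, 426 and 502 in the WT runners, 384, 391 and 394 in the FLExDUX4 controls and 371, 441, 405 and 409.9 in the FLExDUX4 runners. Its WT groups did not overlap. The X-linked Ndufa1 differed by 0.31 in WT and 0.43 in FLExDUX4, and Ndufa8, Ndufa10, Ndufa11, Ndufa13 and Ndufc2 lay between 0.27 and 0.40 averaged over genotype.

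Among the 11 accessory subunits of the distal membrane arm, 1 was called (Ndufb10), 10 stood at an unadjusted p under 0.05, and the median change was 0.35. Ndufb1 is not among them, because no row bears that symbol. The row of ENSMUSG00000113902 (symbol AC121965.1 in the table, Ndufb1-ps in GENCODE M21, a synonym of Ndufb1 in RefSeq) had 769 to 2318 counts per library and differed by 0.33 ± 0.11 (edgeR adjusted p = 0.133). Ndufb6, a subunit with a membrane-spanning helix, was the lowest of the arm (0.15 ± 0.10, edgeR adjusted p = 0.581) and stood at 154, 153 and 167 CPM in the WT controls, 166, 159, 162 and 197 in the WT runners, 142, 163 and 148 in the FLExDUX4 controls and 171, 161, 182 and 175 in the FLExDUX4 runners. In WT only running 4 stood above the others, and in FLExDUX4 all runners but mouse 2 stood above the controls. The other 9, which include Ndufab1, the mitochondrial acyl carrier protein, and the X-linked Ndufb11, lay between 0.28 (Ndufb2) and 0.40 (Ndufb3). The role groups were not tested against each other.

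Ndufa4, named as a complex I subunit but since placed in complex IV, stood at 297, 256 and 288 CPM in the WT controls, 396, 369, 364 and 453 in the WT runners, 248, 328 and 327 in the FLExDUX4 controls and 346, 399.7, 407 and 285 in the FLExDUX4 runners. WT groups did not overlap, and FLExDUX4 running 1, 2 and 3 were above all controls of their genotype (0.38 ± 0.10, edgeR adjusted p = 0.0673). Its hypoxia-induced paralogue Ndufa4l2 had 4 to 22 counts per library and stood at 4.42, 1.73 and 1.204 CPM in the WT controls, 2.37, 2.84, 2.64 and 3.89 in the WT runners, 2.47, 1.99 and 1.67 in the FLExDUX4 controls and 0.972, 4.04, 2.41 and 2.99 in the FLExDUX4 runners. A change of Ndufa4l2 was not detected (0.30 ± 0.47, 95% interval -0.65 to 1.24; edgeR adjusted p = 0.882).

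The 8 Ndufaf assembly factors spread on both sides of 0, with a median of 0.14, 5 above 0, 0 called and 2 at an unadjusted p under 0.05. Ndufaf3, which works with Ndufaf4 in building the quinone module, stood at 15.6, 14.04 and 15.04 CPM in the WT controls, 24.5, 23.3, 28.4 and 26.9 in the WT runners, 15.1, 17.95 and 16.3 in the FLExDUX4 controls and 17.3, 32.8, 18.97 and 12.8 in the FLExDUX4 runners. In WT each runner was far above each control, with a log2 change of 0.79 ± 0.26 (edgeR adjusted p = 0.164), the highest of the 46 in WT. In FLExDUX4, running 2 was far above all other mice of the genotype and running 4 below all controls (0.30 ± 0.26, edgeR adjusted p = 0.888). Without FLExDUX4 running 2 the averaged change of Ndufaf3 was 0.39, and with all mice 0.54 (edgeR adjusted p = 0.141).

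Ndufaf7, a methyltransferase that acts early in assembly, had 13 to 74 counts per library and stood at 5.05, 7.56 and 3.91 CPM in the WT controls, 5.15, 8.35, 6.497 and 7.08 in the WT runners, 6.31, 11.2 and 9.52 in the FLExDUX4 controls and 5.64, 7.805, 6.02 and 5.701 in the FLExDUX4 runners. It was the lowest member averaged over genotype, -0.12 ± 0.26 (edgeR adjusted p = 0.92), and its sign turned with library sizes from spike-ins and without WT control 2. Of the others, Ndufaf1, Ndufaf2, Ndufaf4 and Ndufaf6 differed by 0.22, 0.44, 0.27 and 0.06. Ndufaf5, which hydroxylates Ndufs7, and its partner Ndufaf8 differed by 0.00 and -0.08. None of these 6 was called.

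Within WT, all 46 members were above 0, with a median log2 change of 0.35, against 51.3% above 0 and a median of 0.01 over all genes. edgeR called 0 of 46, where it called 0.496% of all genes, and 27 of 46 stood at an unadjusted p under 0.05 (10.7% of all genes). The smallest edgeR adjusted p was 0.0637, of Ndufa8 (0.58 ± 0.15), an intermembrane space subunit. DESeq2 called 7 members (background 2.56%), limma-voom 0 (0.207%), edgeR without a low-count filter 8 (1.04%), without FLExDUX4 control 1 and WT running 2 together 1 (0.253%), and with library sizes from spike-ins 34 (5.45%), where the median of all genes moved to 0.37. All 4 WT runners lay above all 3 WT controls in 25 of 46 members (54.3%), against 5.74% of all genes. Those 25 were 4 of 7 core, 4 of 9 matrix arm, 7 of 9 proximal and 8 of 11 distal membrane arm subunits, Ndufa4, and 1 of 8 assembly factors.

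Within FLExDUX4, 41 of 46 members were above 0, with a median of 0.18, against 51.1% above 0 and a median of 0.01 over all genes. edgeR called 0 of 46 (0% of all genes), and 5 stood at an unadjusted p under 0.05 (6.66% of all genes). DESeq2 and limma-voom called 0 members (0% of all genes in each). All FLExDUX4 runners lay above all FLExDUX4 controls in 2 of 46 members (4.35%), Ndufs5 and Ndufaf2, against 3.72% of all genes. In no member did all 8 runners lie above all 6 controls (0.171% of all genes). By role, the medians in WT and FLExDUX4 were 0.32 and 0.11 for the core, 0.30 and 0.10 for the matrix arm, 0.46 and 0.22 for the proximal and 0.47 and 0.23 for the distal membrane arm, and 0.20 and 0.17 for the assembly factors.

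The difference between the running effects of the genotypes was tested as an interaction. Its median over the members was -0.20, with 9 of 46 above 0 and 37 below, against 49.4% above 0 and a median of -0.01 over all genes. edgeR called 0 of 46 (0% of all genes), and 0 stood at an unadjusted p under 0.05 (4.84% of all genes). DESeq2 and limma-voom called 0 members (0 of 11088 genes in each). With library sizes from spike-ins the median was -0.54 and that of all genes -0.32. There, 27 of 46 stood at an unadjusted p under 0.05 (10.3% of all genes), with 0 called (1 of 11088 genes). The smallest edgeR adjusted p was 0.954, and the median of the 95% intervals ran from -0.66 to 0.23. That range holds both 0 and a difference as large as the median change in WT. The members farthest from 0 were Ndufaf7 (-0.82 ± 0.53) and Ndufaf2 (0.51 ± 0.45), and Ndufv1 (-0.38 ± 0.21, 95% interval -0.80 to 0.03) had the smallest p of the core.

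The genotypes were compared in controls and in runners. In controls the median difference, FLExDUX4 minus WT, was 0.07, with 34 of 46 above 0, and in runners it was -0.11, with 40 of 46 below 0. The medians of all genes were 0.00 and -0.01, and 50.3% and 48.8% of genes lay above 0. These comparisons share their groups with the running comparisons, so that the signs are not independent of them. edgeR called 0 of 46 in either (0% of all genes in each), and 0 stood at an unadjusted p under 0.05 (5% and 3.16% of all genes). DESeq2 called 0 members (3 of 11088 genes in controls and 0 in runners), and limma-voom 0 (0 of 11088 genes in each). With library sizes from spike-ins the median in controls was 0.39, that of all genes 0.31, and 45 of 46 were above 0. There, 24 of 46 stood at an unadjusted p under 0.05 (13.7% of all genes), with 0 called (2 of 11088 genes). In controls, Ndufv1 differed by 0.28 ± 0.16 (95% interval -0.04 to 0.60) and Ndufs8 by 0.26 ± 0.19 (-0.12 to 0.65), while Ndufb10 differed by 0.00 ± 0.16 (-0.33 to 0.33).

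The members stood high or low together in single mice. Summed over the 46 members, the level was 8284, 8814 and 8908 CPM in WT controls (8668 ± 337, SD, n = 3) and 11241, 9945, 10476 and 13214 in WT runners (11219 ± 1432, n = 4). It was 8729, 9682 and 9131 in FLExDUX4 controls (9181 ± 479, n = 3) and 10012, 11942, 10707 and 8812 in FLExDUX4 runners (10368 ± 1309, n = 4). WT runners were all above WT controls, and FLExDUX4 running 4 was inside the range of its controls. WT running 4 was the highest of its group in 34 of 46 members, and FLExDUX4 running 2 of its group in 42. WT running 2 was the lowest of its group in 27 members and FLExDUX4 running 4 in 32. Relative to the mean of the WT controls, the median log2 level of the members was 0.57 in WT running 4, 0.48 in FLExDUX4 running 2, 0.19 in WT running 2 and 0.04 in FLExDUX4 running 4.

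**Figure D3:**
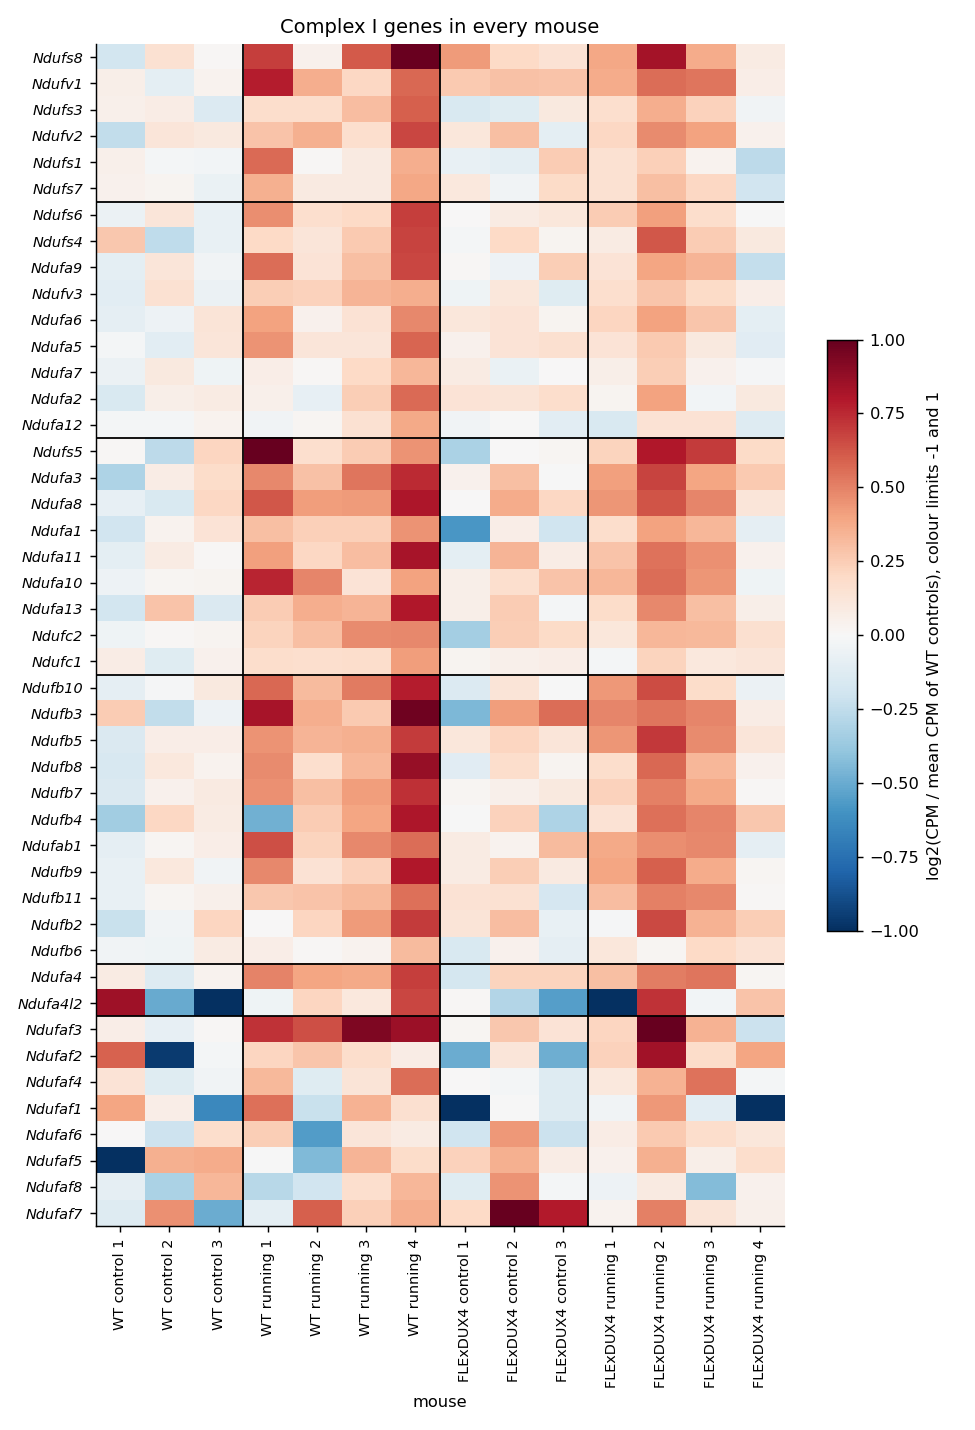
Log2 of the CPM of 45 of the 46 genes (rows, ordered by role) over the mean of each in the WT controls, in each of the 14 mice (columns), with red above and blue below that mean. WT running 4 and FLExDUX4 running 2 are red in all 45 rows, and FLExDUX4 running 4 is pale, with 29 of 45 above the mean.

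The levels of the oxidative fibre gene Mb, which encodes myoglobin, were 356, 389 and 338 CPM in the WT controls, 3794, 1687, 1173 and 4130.2 in the WT runners, 762, 1387 and 1235 in the FLExDUX4 controls and 2000.4, 3816, 1856 and 651 in the FLExDUX4 runners. WT running 4 and FLExDUX4 running 2 were the highest of their groups in Mb and the lowest of all mice in Myh4, the myosin of glycolytic fibres (12575 and 11754 CPM). FLExDUX4 running 4 was the lowest of its group in Mb and in Myh2, the myosin of oxidative fast fibres (186 CPM, against 457 to 593 in FLExDUX4 controls). The order of the WT runners was not the same in the members and in Mb and Myh2. WT running 2 was the lowest of its group in the summed members, whereas WT running 3 was the lowest in Mb and in Myh2 (149 CPM). Myh2 was highest in WT running 1 (2349 CPM, against 1337 in WT running 4). Of 9 slow and oxidative fibre markers, 9 were above 0 with running averaged over genotype (median log2 change 2.18), with 0 called, and their summed level was 416 to 476 in WT controls, 1409 to 6667 in WT runners, 1361 to 2219 in FLExDUX4 controls and 862 to 6120.1 in FLExDUX4 runners (CPM). Of 7 fast muscle markers 0 were above 0 (median -0.21) and 0 were called. The slow and oxidative markers had a median of 3.22 within WT (9 of 9 above 0) and 0.67 within FLExDUX4 (8 of 9). Their difference of running effects had a median of -2.30, with 0 of 9 above 0 and 0 called. The fast markers had medians of -0.27 within WT (0 of 7 above 0) and -0.12 within FLExDUX4 (2 of 7). The part of these fibre markers in the result was not tested.

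**Figure D4:**
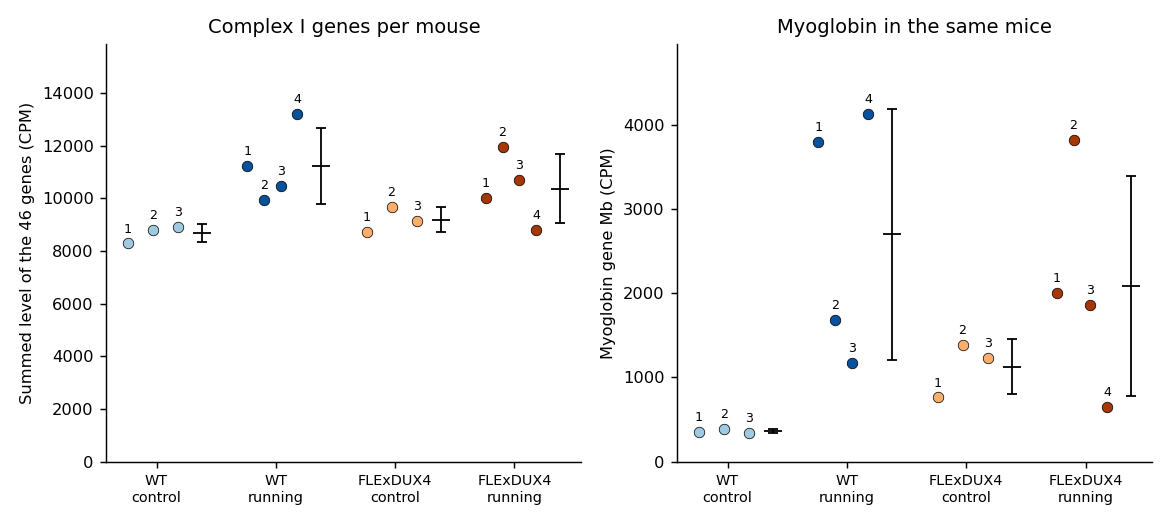
Summed CPM of the 46 complex I genes (left) and CPM of Mb (right) in each mouse (numbered points), with the mean and 1 SD of each group. WT running 4 and FLExDUX4 running 2 are the highest of their groups on both sides, and FLExDUX4 running 4 is the lowest of its group on both. Among the WT runners the lowest is running 2 on the left and running 3 on the right.

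Markers of other cell types were read in the same comparison. All 7 endothelial markers were above 0 averaged over genotype (median 0.57), 1 was called (Kdr), and their summed CPM were 91.9 to 103 in WT controls, 153 to 236 in WT runners, 122 to 123 in FLExDUX4 controls and 97.9 to 189.7 in FLExDUX4 runners. All 5 red blood cell markers were above 0 (median 0.82, 0 called), with summed CPM of 441 to 955 in WT controls, 1134 to 1840.5 in WT runners, 672 to 989.6 in FLExDUX4 controls and 478 to 1743 in FLExDUX4 runners. All 5 Schwann cell markers were above 0 (median 0.55, 0 called), with summed CPM of 30.9 to 39.1 in WT controls, 47.1 to 70.6 in WT runners, 35.5 to 59.3 in FLExDUX4 controls and 52.6 to 65.9 in FLExDUX4 runners. Of 6 tested white adipocyte markers 0 were above 0 (median -0.25, 0 called), with summed CPM of 2069 to 2301 in WT controls, 1063 to 1841 in WT runners, 1550.0 to 2589 in FLExDUX4 controls and 1247 to 2749 in FLExDUX4 runners. Car3 made up most of this sum (1976 to 2213 CPM in WT controls, against 8.20 to 18.1 for Adipoq and 4.21 to 11.1 for Plin1). The sum therefore mainly follows that 1 gene and was not taken as a level of adipocyte RNA. Within FLExDUX4, 3 of the 6 were above 0 with running (median 0.01). Brown adipocyte markers were near 0 (Elovl3 at 0 in all libraries, Ucp1 in 13 of 14). Cidea, the 1 brown marker tested, differed by 1.83 averaged over genotype and was not called. It stood at 0 to 0.301 CPM in WT controls and 0 to 2.57 in WT runners. In FLExDUX4 it stood at 0 to 2.06 in controls and 0 to 3.11 in runners. Macrophage markers had a median of 0.14 with 0 called, and summed CPM of 48.5 to 114 over all mice. Tendon markers had a median of 0.05 with 0 called, which averages 0.59 within WT and -0.27 within FLExDUX4. Their summed CPM were 43.6 to 85.0 in WT controls, 54.8 to 149 in WT runners, 98.2 to 202 in FLExDUX4 controls and 75.0 to 178 in FLExDUX4 runners. Transcripts of the mitochondrial genome took 20.9% to 26.4% of gene counts in WT controls, 27.0% to 36.6% in WT runners, 20.5% to 29.2% in FLExDUX4 controls and 26.6% to 39.8% in FLExDUX4 runners. The part of these markers and shares in the result was not tested.

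The other genes of complex I were read beside the members. Of 7 subunits encoded by the mitochondrial genome, 6 could be tested, all 6 were above 0 averaged over genotype, with a median of 0.36, and 0 were called. mt-Nd1, part of the quinone end of the membrane arm, differed by 0.29 ± 0.17 in WT and 0.48 ± 0.17 in FLExDUX4, and mt-Nd4, a proton-pumping subunit, by 0.35 ± 0.21 and 0.40 ± 0.21. Of 7 tested assembly factors with other names, 5 were above 0 averaged over genotype, with a median of 0.26, and 0 were called. Named after their values were seen, Tmem70, which had the smallest p of the 7, differed by 0.45 ± 0.13 (edgeR adjusted p = 0.0975), Timmdc1 by 0.40 ± 0.21, and Ecsit by -0.01 ± 0.16. Within WT, 6 of the 7 were above 0 (median 0.22), and within FLExDUX4 2 of the 7 were (median -0.01).

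In the rest of the respiratory chain, averaged over genotype, 0 of 4 complex II subunits were called (median 0.46), 1 of 9 nuclear complex III subunits rose (Uqcrq, 0.59 ± 0.13; edgeR adjusted p = 0.025; median 0.33), and 6 of 11 nuclear complex IV subunits rose (median 0.44). The 6 were Cox4i1, Cox5b, Cox6b1, Cox7a1, Cox7b and Cox8b, and Cox7a1, a muscle form of a complex IV subunit, rose by 0.65 ± 0.13 (edgeR adjusted p = 0.0122). The complexes were not tested against each other. Of 11 regulators of nuclear respiratory genes 8 were above 0 and 0 were called (median 0.21). Ppargc1a, a coactivator of mitochondrial biogenesis, differed by 0.16 ± 0.13, Nrf1 by 0.08 ± 0.25, Gabpa by 0.35 ± 0.26, Esrra by 0.33 ± 0.17 and Yy1 by -0.07 ± 0.12. Esrrg stood at 2.11 to 9.26 CPM in WT controls and 1.22 to 23.5 in WT runners. In FLExDUX4 it stood at 6.04 to 12.6 in controls and 6.13 to 26.9 in runners. Esrrb stood at 0 in the WT controls, 1.02 to 11.3 in WT runners, 0 to 3.09 in FLExDUX4 controls and 0.602 to 9.15 in FLExDUX4 runners.

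In the authors' deposited table, made with DESeq2 per the submitters' processing notes, 20 of the 40 members with an adjusted p passed 0.05 between WT controls and WT runners, all 20 higher in runners, where 9.9% of 3021 genes passed. Between FLExDUX4 controls and FLExDUX4 runners the authors' deposited table held 0 of 45 (0.0531% of the 7532 genes with an adjusted p). It held 0 of 46 between the genotypes in controls and 0 of 46 in runners (0.00441% of 22687 genes in each). The authors' deposited table also compared groups that differ in both factors. There, 2 of 40 members (Ndufa1 and Ndufb10) were higher in WT runners than in FLExDUX4 controls (0.761% of 3021 genes). Ndufb5, 1 of 41, was higher in FLExDUX4 runners than in WT controls (2.19% of 3841 genes). These comparisons share groups with each other and with those above.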

How the data were processed

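Triceps RNA was made into QuantSeq 3′ FWD libraries and sequenced as single reads, per the labels' protocols. The authors deposited raw read counts per gene and mouse, without normalization. Per the submitters' processing notes, featureCounts 1.6.2 (Subread) and STAR 2.5.3a were used with cutadapt 1.16, FastQC 0.11.7 and DESeq2, and GRCh38 is listed beside GRCm38. Annotation release, strandedness and multi-alignment settings were not stated. Beside the counts the authors deposited log2 fold changes and p-values of 6 pairs of groups. Coordinates of members are those of GENCODE M21, on GRCm38. BC002163 was aligned locally to the Ndufs5 transcripts of GENCODE M21 with Biopython 1.88. As deposited, all 46 members had the chromosome, and 37 the start, of GENCODE M21.

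The 99 spike-in rows were set aside. In edgeR 4.0.16 (R 4.3.3), filterByExpr with a minimum count of 10 kept 11088 genes. A robust quasi-likelihood fit with TMM factors (0.911 to 1.114) and 1 mean per group covered all 14 libraries (common biological coefficient of variation 0.288). A call is a p under 0.05 after Benjamini-Hochberg adjustment across the 11088 genes. Log2 changes are given with the standard error of the fit. On simulated data for the running average, edgeR called 62 of 100 genes changed by log2 1, 94 of 100 changed by log2 2, and 11 of 10888 unchanged genes. Changes of the size of the member median (0.28) were not simulated, so the share of such changes that would be called is not known. The design text calls the WT mice littermates, and no label gives the litter or cage of a mouse. The p-values weigh differences between groups against the spread between mice within groups. Counting error was not estimated apart from that spread.

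The members and all lists were chosen with earlier results of these data known. Named with values in every mouse were each called member, the core subunits, the highest and lowest member of each role group, Ndufa4 and Ndufa4l2. The values of 1 member are not reported here and not drawn by gene, and counts and medians over the 46 include it. The alternatives were DESeq2 1.42.0, limma-voom (limma 3.58.1), RLE factors, spike-in library sizes, no mitochondrial genes and Gm42418, other filters, no robust estimation, only the groups compared, FLExDUX4 control 1 and WT running 2 left out, and each mouse left out in turn.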

Additional observations from a re-analysis of the deposited data

Results flagged for a closer look

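In groups of 4 mice, 38 values were checked for a mouse far from the others, and 2 stood out, where chance flags about 1 in 20. Ndufb6 in WT running 4 was at 197 CPM, with the other WT runners at 159 to 166, a gap of 0.832 of the range, just above Dixon's 95% critical value. Ndufc1 in WT running 4 was at 502 CPM, with the others at 424 to 426, a gap of 0.963 of the range. The same mouse was the highest of its group in 34 of 46 members.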

How the results depend on the processing

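The direction of the member medians held in all 6 comparisons under every alternative run, whereas the count of called members did not. For running averaged over genotype (2 called in the reported fit), 9 were called with DESeq2, 1 with limma-voom, 27 with library sizes from spike-ins, 10 without a low-count filter, 4 with a filter of 1 CPM in 3 libraries, 0 without robust estimation and 0 without FLExDUX4 control 1 and WT running 2. Leaving out 1 mouse gave 0 to 15, where 0.153% to 2.61% of all genes were called. Within WT (0 called), 7 were called with DESeq2, 34 with spike-in sizes, 8 without a filter and 1 without those 2 mice, and leaving out 1 mouse gave 0 to 3, where 0% to 1.78% of all genes were called. With spike-in sizes the medians became 0.48 (running average), 0.71 (WT), 0.39 (genotype in controls) and -0.54 (interaction). The medians of all genes moved to 0.21, 0.37, 0.31 and -0.32, and members minus all genes were then 0.27, 0.34, 0.08 and -0.21, against 0.27, 0.33, 0.07 and -0.19 in the reported fit. Of all genes called for the running average, 61 of 95 were higher in the reported fit and 419 of 430 with spike-in sizes. Leaving out 1 mouse, medians ranged from 0.24 to 0.32 (running average), 0.27 to 0.39 (WT), 0.09 to 0.26 (FLExDUX4), 0.03 to 0.11 (genotype in controls), -0.18 to -0.04 (in runners) and -0.28 to -0.09 (interaction). Adjusted p over the mice left out ran from 0.014 to 0.155 for Ndufa3 (called in 5 of 14 edgeR fits) and from 0.00648 to 0.134 for Ndufb10 (4 of 14). Ndufaf7 turned to 0.0582 with spike-in sizes, and ranged from -0.218 to 0.0269 with 1 mouse left out, above 0 without WT control 2. The cause of these shifts was not tested. No paired analysis was possible because the labels give mouse numbers that no 2 groups share. Ndufa4l2, Ndufs5 and Ndufaf7 had at most 74 counts in any library, and what greater depth would change was not tested.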
